A study of Oryza sativa with 18 samples.

Results

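The regions described here are the stretches of accessible chromatin listed within 2 Mb of the centromeres of the 12 rice chromosomes. A region was counted as a member when its midpoint lay within 2 Mb of a centromere position, and no measured value entered that choice. The positions, given to 0.1 Mb, were 16.7 Mb on chromosome 1, 13.6 Mb on chromosome 2, 19.4 Mb on chromosome 3, 9.7 Mb on chromosome 4, 12.4 Mb on chromosome 5 and 15.3 Mb on chromosome 6. They were 12.1 Mb on chromosome 7, 12.9 Mb on chromosome 8, 2.8 Mb on chromosome 9, 8.2 Mb on chromosome 10, 12.0 Mb on chromosome 11 and 11.9 Mb on chromosome 12. The build the positions refer to is not stated. The 12 windows held 2328 of the 29831 regions listed on these chromosomes, out of 29978 in the whole list, and the other 27503 chromosomal regions served for comparison. The windows made up 12.9% of the chromosomes' length and held 7.80% of their regions.

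The list came from ATAC-seq, in which a transposase inserts adapters into DNA that nucleosomes leave exposed. The 18 libraries were made from nuclei of the second leaf of 14-day-old Azucena rice plants grown in hydroponic culture at 30 °C, with 2 libraries in each of 9 groups. Heat groups were moved to 40 °C and taken at 0.5 h, 2 h and 4 h, and a heat recovery group had 2 h at 40 °C and then 2 h at 30 °C. A dehydration group had its roots in air for 2 h, and a dehydration recovery group had 1.5 h in air and then 2 h back in liquid. Control groups stayed at 30 °C in liquid and were taken at 0.5 h, 2 h and 4 h. The analysed file is 1 list for the whole series, without a value per library, so nothing below compares treatments, the depth per library is unknown, and every error is a spread between chromosomes rather than between plants.

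Centromeres are the sites where chromosomes attach to the spindle, and their nucleosomes carry a special histone H3 variant, CENH3. In rice they are built of a short tandem satellite repeat, CentO, mixed with centromere-specific retrotransposons. The surrounding pericentromeric chromatin is rich in transposable elements and methylated DNA, poor in genes and low in meiotic recombination. Rice is also known for centromeres that hold some transcribed genes, that of chromosome 8 being the best studied, so accessible sites near a centromere are not unknown there. The file pairs no region with a gene and marks neither centromeres nor CENH3, and the genes, repeats and sequence of the members were not analysed here.

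Open regions were sparse around the centromeres of all 12 chromosomes. The windows held 48.5 regions per Mb ± 14.0, against 82.8 ± 15.9 in the rest of the chromosomes (SD, n = 12 chromosomes each). The mean log2 ratio of window to rest was -0.80 ± 0.36 (SD, n = 12), or 0.57 times the density, and the window was the sparser side on 12 of 12 chromosomes (sign-flip permutation test, two-sided and exact, with p = 0.000488, its smallest possible value, and Benjamini-Hochberg adjusted p = 0.0013 over 8 quantities). Windows ran from 27.5 regions per Mb on chromosome 10, through a median of 46.5, to 71.5 on chromosome 6, while the rest ran from 55.5 on chromosome 11, through a median of 81.2, to 106.7 on chromosome 3. The groups of values overlapped only through the windows of chromosomes 1, 2 and 6, at 68.0, 63.5 and 71.5 regions per Mb.

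The size of the deficit differed between chromosomes. Chromosome 10 had the lowest ratio, with 27.5 regions per Mb in the window and 75.1 in the rest, a ratio of 0.37. Chromosome 4 followed with 30.2 in the window and 71.0 in the rest, a ratio of 0.43. The short arms of both are known as heterochromatic, that is, made largely of compact and little transcribed chromatin. On chromosome 4 the 2 Mb below the position held 67 regions and the 2 Mb above it 54, and on chromosome 10 they held 56 and 54. How the short arms bear on these ratios was not tested. Chromosomes 5, 8 and 3 had ratios of 0.48, 0.48 and 0.51. The weakest deficits were on chromosome 11, with 42.2 regions per Mb in the window and 55.5 in the rest, and on chromosome 6, with 71.5 and 81.8, which are ratios of 0.76 and 0.87.

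**Figure D1:**
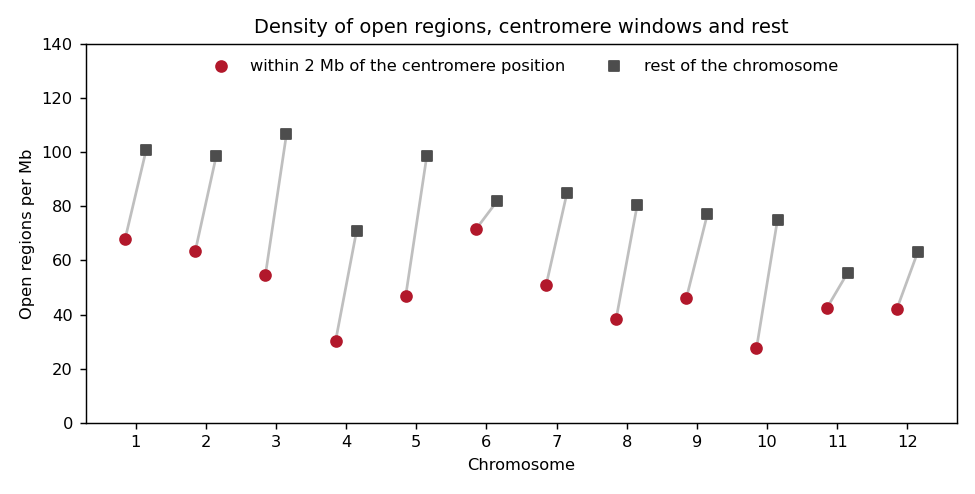
Open regions per Mb on each of the 12 chromosomes, within 2 Mb of the centromere position (circles) and in the rest of the same chromosome (squares), joined by a line. Every circle lies below its square, with the shortest line on chromosome 6 (71.5 and 81.8).

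The share of DNA listed as open was lower around the centromeres as well. Members covered 606.4 kb in all, which was 1.26% ± 0.43 of the window's bases, against 2.17% ± 0.44 in the rest (SD, n = 12 chromosomes each). The mean log2 ratio was -0.83 ± 0.40 and was negative on each of the 12 (exact sign-flip permutation, adjusted p = 0.0013). Mean region width was close on both sides, at 257.4 bp in the windows and 261.8 bp in the rest. The open share thus largely restates the density. The open share was lowest on chromosome 10, at 0.66% in the window and 1.87% in the rest, and highest on chromosome 1, at 2.03% in the window and 2.70% in the rest.

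The deficit was broad, and the centromere windows did not pass the test against the chromatin just beside them. The windows' 48.5 regions per Mb ± 14.0 compare with 59.7 ± 14.4 in the flanks between 2 and 5 Mb from the positions (SD, n = 12 chromosomes each). The mean log2 ratio of window to these flanks was -0.31 ± 0.37, with the window lower on 9 of the 12 (exact sign-flip permutation, p = 0.0137, adjusted p = 0.109 over the 8 quantities). On chromosomes 6, 9 and 12 the window was the denser side, at 71.5, 46.0 and 42.0 regions per Mb, against 60.7, 41.6 and 37.7 in the flanks. Farther out the density was higher, at 77.0 per Mb ± 22.0 from 5 to 10 Mb and 99.9 ± 17.8 beyond 10 Mb (SD, n = 12 chromosomes each).

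Within the windows the sparsest part, averaged over chromosomes, lay at the centromere position itself. The 250 kb on each side of it held 165 regions over the 12 chromosomes, or 27.5 per Mb ± 11.5, and the next 250 kb on each side held 277, or 46.2 per Mb ± 24.6 (SD, n = 12 chromosomes each). From 0.5 to 1 Mb, from 1 to 1.5 Mb and from 1.5 to 2 Mb the density was 56.0 ± 20.1, 50.3 ± 21.1 and 50.8 ± 27.2 per Mb. The dip was lopsided, with 107 regions in the 250 kb below the positions and 58 in the 250 kb above them. The higher-coordinate side held fewer regions on 8 chromosomes, as many on 3 and more on chromosome 4, which had 3 above and 2 below. This inner zone was singled out after its values were seen and was not tested, and with positions given to 0.1 Mb the zero point carries that uncertainty.

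The inner 250 kb on each side held between 5 and 24 regions per chromosome, with a median of 13.5. Chromosome 4 was lowest with 5, chromosome 5 had 8 and chromosome 7 had 9. Chromosome 2 was highest with 24, followed by chromosome 1 with 22. Chromosome 8, whose centromere is known for transcribed genes, had 15, of which 10 lay below the position and 5 above it, so this count was near the median of the 12.

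**Figure D2:**
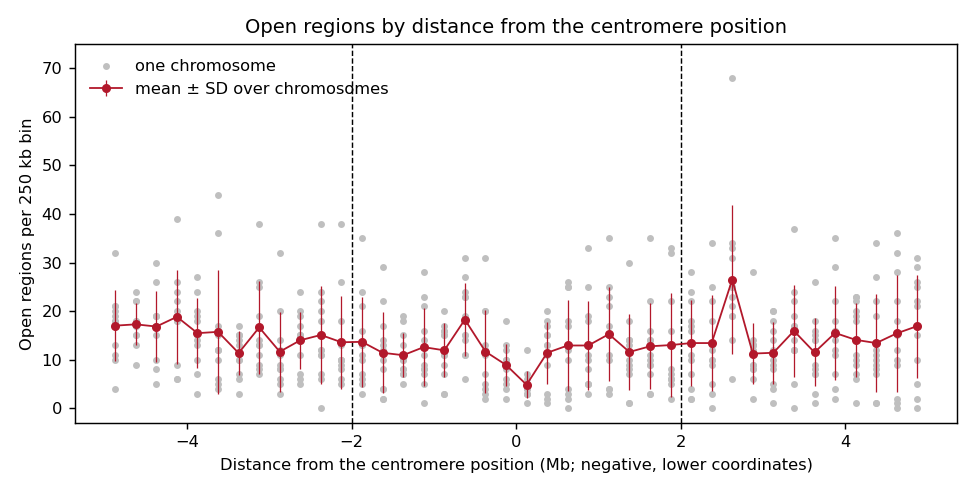
Open regions per bin of 250 kb by distance from the centromere position, for single chromosomes (grey) and as mean ± SD over chromosomes (red), with dashed lines at the 2 Mb limits. The lowest mean, 4.83 regions, is in the bin just above the position, where no chromosome exceeds 12.

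The sparsest stretch of a chromosome was not always at its centromere. The single Mb centred on the position held 16 to 73 regions, with a median of 33.5. Of all stretches of 1 Mb on the same chromosome, taken every 50 kb, 0.55% held fewer regions than the centromeric one on chromosome 8 and 0.71% did so on chromosome 3. The share was under 10% on 6 chromosomes and under 25% on 11, and was 30.8% on chromosome 9. The sparsest 1 Mb of the chromosome was centred within 2 Mb of the position on 5 chromosomes, namely 2, 3, 7, 8 and 10. On chromosome 11 it lay 16.2 Mb away, from 27700001 to 28700000, with 12 regions, and on chromosome 4 it lay from 2550001 to 3550000, with 4 regions, in the short arm.

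Counts also varied between neighbouring parts of a window. Of 192 bins of 250 kb in the 12 windows, 13 held 2 regions or fewer. The emptiest, with 0 regions, ran from 10200000 to 10449999 on chromosome 4. Bins with 1 region lay from 10950000 to 11199999 on chromosome 4 and from 13150000 to 13399999 on chromosome 8, among 5 bins with that count. The fullest bins held 35 regions each and lay from 14700000 to 14949999 on chromosome 1, from 20900000 to 21149999 on chromosome 3 and from 16300000 to 16549999 on chromosome 6. All coordinates are those of the deposited file, for which the sources used here name no genome build.

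Long stretches without any listed region took up more of the windows than of the rest. A gap here means only that no region is listed. How well reads could be placed in these stretches, or whether the build lacks sequence there, is not given and was not tested. The same limit holds for the densities. Gaps of at least 50 kb covered 53.2% ± 14.8 of the window's length, against 32.5% ± 11.0 of the rest (SD, n = 12 chromosomes each), a difference of 20.7 percentage points ± 14.4. The windows were higher on all chromosomes but 6 (exact sign-flip permutation, p = 0.00146, adjusted p = 0.00234). The share was highest on chromosomes 10 and 4, at 77.9% and 76.7% in the windows, against 37.6% and 42.1% in the rest. Chromosome 6 went the other way, with 25.7% in the window and 33.7% in the rest, and chromosome 11 had 52.2% and 50.6%. Against the flanks the difference was 7.29 points ± 14.1 and did not pass (exact sign-flip, adjusted p = 0.251).

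Of the 342 gaps of 100 kb or more on the 12 chromosomes, 88 (25.7%) were centred in the windows, which hold 12.9% of the length. A longer mean gap follows from a lower density, so the gap lengths restate the deficit in part. The median gap between neighbours was 7676 bp ± 1310 in the windows and 4423 bp ± 555 in the rest (SD, n = 12 chromosomes each).

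The longest gap of each window ran from 151.9 kb on chromosome 2 to 430.9 kb on chromosome 7, with a mean of 264.7 kb ± 82.4 (SD, n = 12). That of chromosome 7, from 11894774 to 12325698, was the longest gap of its chromosome and held the centromere position as given. On chromosomes 3 and 9 too the longest gap of the whole chromosome lay in the window. It ran over 249.4 kb from 19726952 to 19976395 on chromosome 3 and over 292.3 kb from 1368154 to 1660423 on chromosome 9. On 10 chromosomes the window's longest gap was among the 5 longest of the chromosome, the exceptions being chromosomes 6 and 12, where it ranked 6 and 9.

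The longest gap seldom held the centromere position. On 7 chromosomes its middle lay within 500 kb of it, and on chromosome 5, where it ran from 13932801 to 14153844, the middle lay 1643 kb away. On chromosome 4 it ran over 398.9 kb from 10468646 to 10867535, and on chromosome 8 over 286.2 kb from 13072740 to 13358936. The other longest gaps ran from 16719984 to 16912208 on chromosome 1, from 14362262 to 14514190 on chromosome 2 and from 15317211 to 15499553 on chromosome 6. They ran from 6868543 to 7111085 on chromosome 10, from 12304574 to 12553795 on chromosome 11 and from 11434109 to 11713096 on chromosome 12. The gap that held the position was at least 100 kb long on 5 chromosomes, which were 3, 5, 7, 9 and 10, with 124.4, 173.8, 430.9, 217.0 and 100.5 kb. It was shortest on chromosome 1, at 7.76 kb, and on chromosome 8, at 21.5 kb. Both lengths are below the rounding of the positions. So are those on chromosomes 2, 4, 6, 11 and 12, at 37.3, 41.1, 63.3, 50.8 and 60.3 kb. Which gap holds the centromere is not resolved on any of these chromosomes. The gap ended at 19416870 on chromosome 3 and began at 8193904 on chromosome 10, close to the positions, so the limit applies there too.

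**Figure D3:**
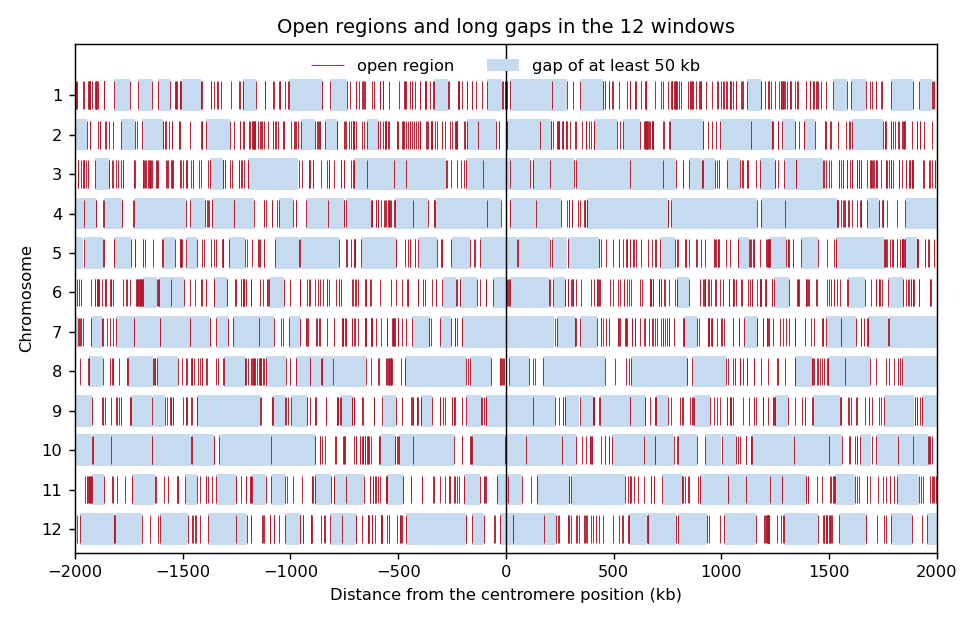
Members (red lines, drawn wider than to scale) and gaps of at least 50 kb (blue) by distance from the centromere position in kb, with 1 row per chromosome. Gaps fill most of the rows of chromosomes 4 and 10 (76.7% and 77.9% of the length) and least of chromosome 6 (25.7%), and on chromosome 7 a gap of 430.9 kb spans the position.

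The region nearest the given position lay less than 100 kb away on 11 chromosomes, which is below the 0.1 Mb to which positions are given, so these distances are not told apart. On chromosome 1 that region ran from 16702523 to 16702658 and was 136 bp wide. On chromosome 2 it ran from 13605159 to 13606318 and was 1160 bp wide with a peak value of 18, and on chromosome 8 it ran from 12891973 to 12892144. On chromosome 7 the nearest region lay 205.5 kb away, at the edge of the long gap. Over the 12 chromosomes the median width of the nearest region was 208.5 bp.

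The share of short gaps was not detectably lower around the centromeres at the spacing tested. Such a share also depends on density, which was lower in the windows, so it does not measure clustering apart from density. Gaps under 1000 bp made up 25.1% ± 4.89 of the gaps in the windows, against 27.5% ± 1.47 in the rest (SD, n = 12 chromosomes each). The difference was -2.35 percentage points ± 4.60 and negative on 8 of the 12 (exact sign-flip permutation, p = 0.105, adjusted p = 0.12). It passed with gaps under 2000 bp, at -5.06 points (exact sign-flip, adjusted p = 0.00195), and without chromosome 7, at -3.10 points (exact sign-flip, adjusted p = 0.0357). Chromosomes 7 and 1 had the highest shares in the windows, at 32.5% and 32.1%, against 26.6% and 30.0% in the rest, and chromosome 11 the lowest, at 17.8% against 24.9%.

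Several classes of gap length differed in their pooled shares. Gaps from 300 to 500 bp made up 4.08% in the windows and 5.55% in the rest. Gaps from 1000 to 2000 bp made up 6.66% of the 2329 gaps in the windows, against 9.60% in the rest, those from 2000 to 5000 bp 11.3%, against 15.8%, and those from 5 to 10 kb 12.7%, against 15.5%. Gaps from 20 to 50 kb made up 18.2% in the windows and 12.5% in the rest, and those of 100 kb or more 3.78% and 0.92%. Gaps under 150 bp made up 7.08% in the windows and 6.73% in the rest. These classes were not tested.

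Linking neighbours closer than 1000 bp gave 398 groups of 2 or more that lay wholly in the windows, and 1330 members (57.1%) had no neighbour that close, against 54.4% in the rest. Groups of 5 or more numbered 24, and 129 members (5.54%) belonged to groups of that size, against 5.89% of the regions in the rest. The largest held 9 regions over 5003 bp of chromosome 7, from 13036796 to 13041798, with widths from 72 to 1020 bp and peak values from 12 to 18. Of 5 groups of 6, the first along the genome lay on chromosome 1 from 14795052 to 14796968, with peak values of 13 to 15, and the next on chromosome 3 from 21186523 to 21189927.

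Although there were fewer of them, regions around the centromeres more often had the highest peak value. Each region carries a peak value, a whole number between 10 and 18 that the file leaves undefined and whose upper limit equals the number of libraries in the series. The sources used here do not say whether it counts libraries. The share at 18 was 27.6% ± 3.35 in the windows and 22.3% ± 2.03 in the rest (SD, n = 12 chromosomes each), a difference of 5.31 percentage points ± 3.84. The windows were higher on 11 of the 12 (exact sign-flip permutation, p = 0.000977, adjusted p = 0.00195).

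Chromosome 1 had the highest share, with 33.5% of members at 18 in the window and 19.9% in the rest, followed by chromosome 2 with 31.5% in the window and 21.8% in the rest. The lowest share was on chromosome 10, the exception, with 22.7% in the window and 23.3% in the rest. The difference was also small on chromosome 9, at 23.9% and 22.6%, and on chromosome 5, at 23.9% and 22.2%. The mean peak value was 15.53 ± 0.17 in the windows and 15.34 ± 0.089 in the rest, a difference of 0.19 ± 0.20 (SD, n = 12), positive on all chromosomes but 5 and 10 (exact sign-flip permutation test, adjusted p = 0.0137). Against the flanks neither quantity passed, with 1.50 points ± 4.43 for the share at 18 (exact sign-flip, adjusted p = 0.421) and 0.053 ± 0.24 for the mean (adjusted p = 0.581).

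The other peak values shifted unevenly. Pooled over chromosomes, the values from 13 to 16 together held 48.3% of the members and 55.4% of the regions in the rest. The share at 14 was 11.8% in the windows and 14.6% in the rest, with the window higher on 2 of 12 chromosomes. At the low end there was no such deficit, since values of 12 or less held 9.97% of the members and 9.54% of the rest. The windows thus had fewer regions of middle value and more at the top, and these shares per class were not tested.

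The share at 18 had its lowest means far from the centromere, but it did not change evenly with distance. It was 31.0% ± 7.86 from 0.25 to 0.5 Mb, 29.4% ± 8.09 from 0.5 to 1 Mb, 26.1% ± 6.14 from 1 to 1.5 Mb and 25.6% ± 8.72 from 1.5 to 2 Mb. Outside the windows it was 26.6% ± 5.38 from 2 to 3 Mb, 25.6% ± 3.56 from 3 to 5 Mb, 23.0% ± 3.02 from 5 to 10 Mb and 20.7% ± 1.90 beyond that (SD, n = 12 chromosomes each). In the innermost 250 kb, with 5 to 24 regions per chromosome, it was 24.4% ± 13.6, a spread too wide to place it above or below the others.

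**Figure D4:**
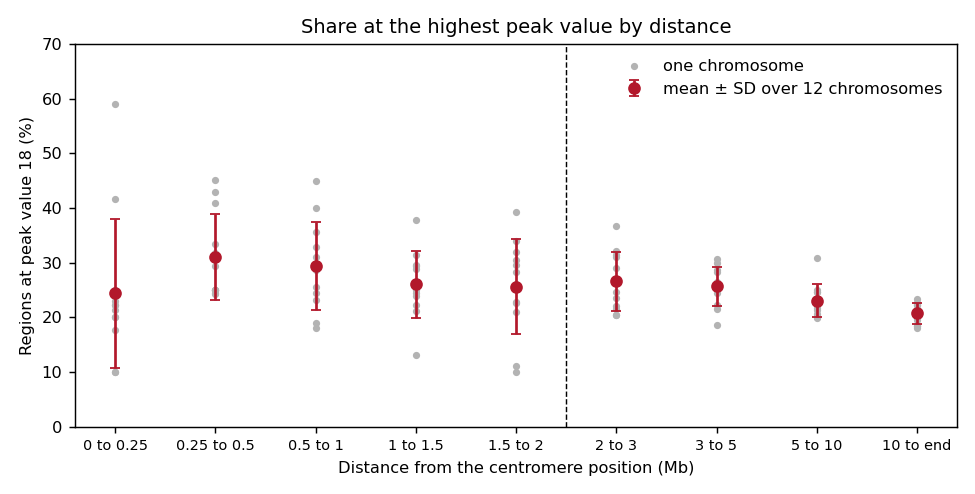
Share of regions at the highest peak value, 18, by distance from the centromere position, for single chromosomes (grey) and as mean ± SD over 12 chromosomes (red), with a dashed line at the 2 Mb limit. The mean is 31.0% from 0.25 to 0.5 Mb and 20.7% beyond 10 Mb, and the innermost class has the widest spread.

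The share at 18 was higher in the windows among both crowded and isolated regions, and the difference was largest among the most crowded. Members less than 300 bp from their nearest neighbour were at 18 in 32.3% of 564 cases, against 22.7% of 6861 in the rest. Members 1000 to 5000 bp from it were at 18 in 27.1% of 557 cases, against 21.7% of 7970. Members at least 20 kb from any neighbour were at 18 in 24.4% of 221 cases, against 20.3% of 1106. Such isolated regions made up 9.49% of the members and 4.02% of the rest. These shares are pooled over chromosomes and were not tested.

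No difference in median width was detected. The median width was 197.6 bp ± 18.7 in the windows and 205.5 bp ± 5.87 in the rest (SD, n = 12 chromosomes each). The difference of -7.83 bp ± 18.1 was negative on 9 of the 12 and did not pass (exact sign-flip permutation test, adjusted p = 0.165). Window medians ran from 162 bp on chromosome 10 to 224 bp on chromosome 1. Chromosome 4 had 169 bp, and the median was 201.2 bp. The rest ran only from 194 to 212 bp, but its medians rested on 1385 to 3958 regions each, against 110 to 286 in the windows. With regions of peak value 16 or more alone, the difference was -30.0 bp and passed (exact sign-flip, adjusted p = 0.00293).

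At the same peak value, members were narrower on average. The mean width of members was 0.92 times that of other regions of the same peak value (mean log2 ratio -0.12 ± 0.056, SD, n = 12), lower on each of the 12 (exact sign-flip permutation, p = 0.000488, adjusted p = 0.0013). Regions at 18 had a pooled median of 388.5 bp in the windows and 435 bp in the rest. At 17 the medians were 268 bp and 301 bp, at 15 they were 170.5 bp and 190 bp, and at 14 they were 115 bp and 138 bp. At 12, near the smallest width of 72 bp that the list holds, they were 78 bp and 79 bp. The log2 ratio was lowest on chromosomes 11 and 4, at -0.22 and -0.20, and closest to 0 on chromosome 6, at -0.035. Runs of close regions at 18 lay 0.5 to 0.75 Mb above the position on chromosome 2 and below it on chromosome 4. Many of those on chromosome 2 were far narrower than these medians, while those on chromosome 4 ranged from 72 to 1810 bp. Both runs enter this ratio and the share at 18. The mean log2 ratio was -0.113 without chromosome 2 and -0.107 without chromosome 4, negative on all 11 others each time (exact sign-flip, adjusted p = 0.0026 for both). Against the flanks the ratio was -0.019 ± 0.094 and did not pass (exact sign-flip, adjusted p = 0.581).

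**Figure D5:**
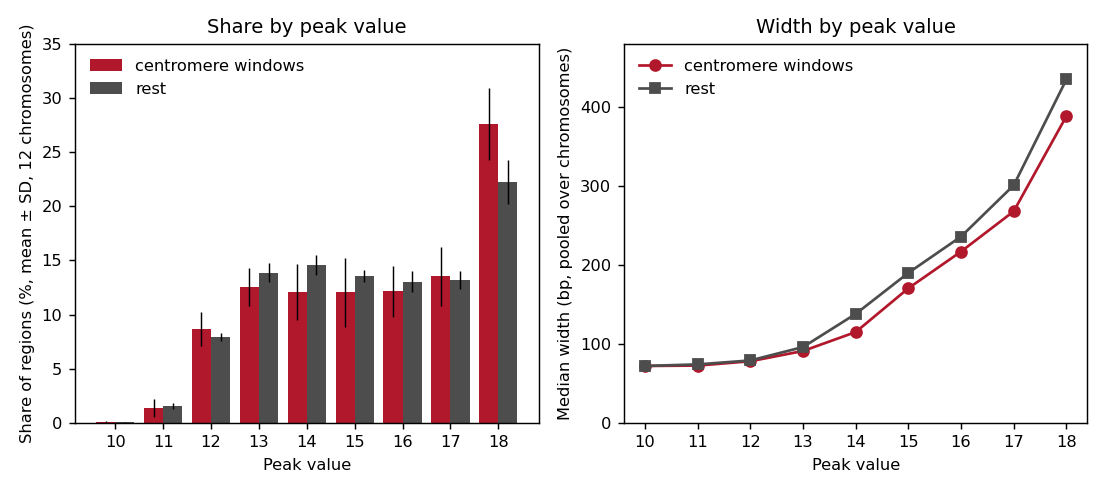
Left, share of regions at each peak value in the centromere windows and in the rest, as mean ± SD over 12 chromosomes; right, median width in bp at each peak value, pooled over chromosomes. The bar of the windows is the higher one at 18 (27.6% and 22.3%), where their median width is the lower one (388.5 and 435 bp).

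Wide regions were present around the centromeres. In the windows 32 regions (1.37%) were wider than 1000 bp, against 311 (1.13%) in the rest, and 29 of the 32 had a peak value of 18, as did 299 of the 311. Chromosome 1 held 7 of them and chromosome 11 held 0. The widest was 2091 bp on chromosome 12, from 11262221 to 11264311. Chromosome 1 held one of 1948 bp (15186775 to 15188722) and chromosome 4 one of 1810 bp (9132310 to 9134119). Those on chromosomes 6 (16009926 to 16011655) and 8 (11753718 to 11755420) were 1730 and 1703 bp wide. All 5 had a peak value of 18 and lay between 0.57 and 1.51 Mb from their centromere position. At the other end, 169 members (7.26%) had the smallest width of 72 bp, against 6.46% of the rest.

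The position of the peak within a region differed little. It lay on the lower-coordinate side of the middle in 76.9% of the members and in 73.5% of the other regions, pooled over chromosomes. The treatment of peaks tied over several bases is not described, so this was not tested.

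The 24 members nearest the limits lay a median of 25.1 kb inside them, had a median width of 268.5 bp and a median peak value of 17, and 10 of them were at 18. The 24 regions just outside lay a median of 20.6 kb beyond the limits, with a median width of 133 bp and a median peak value of 14, and 4 of them were at 18. With so few regions this is given as a description. Over more regions, pooled over chromosomes, the sides of the limits were closer. From 1.5 to 2 Mb, 610 regions had a median width of 210.5 bp and 26.1% were at 18. From 2 to 3 Mb, 1415 regions had a median width of 196 bp and 26.8% were at 18.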

How the data were processed

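ATAC-seq libraries of rice leaves were aligned with Bowtie2 2.2.3, per the submitters' processing notes. The sources used here name no genome build, read filter or region caller and do not say how the 18 libraries were combined. The authors deposited 1 list, whose coordinates are in bp and whose undefined attribute max (the peak value) is used as a plain score, without scaling. The list has 0 columns of per-sample values.

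Members were chosen by position, with earlier results of these data known, as were the quantities and alternatives. Each of 8 quantities was computed for the window and for all other sequence of the same chromosome, whose length was taken as the end of its last region. Regions and gaps were assigned by midpoint. Width at matched peak value used classes with at least 5 regions on both sides, weighted by members. Window and rest were compared by a two-sided sign-flip permutation test, exact over the 4096 sign patterns of the 12 chromosomes, with p adjusted by Benjamini-Hochberg over the 8 quantities, with a threshold of 0.05. Chromosomes are parts of 1 list and not biological replicates, so the p-values measure the spread between chromosomes only. The windows' longest gaps, the gaps and regions at the positions, the 5 widest members, the largest groups and the extreme bins were named by rule. The planned contrasts of treatments could not be made without values per library. Only the density ratio and its test were checked on simulated data, with regions placed uniformly along the chromosomes. Python 3.11.15, NumPy 2.4.6 and pandas 2.3.3 were used.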

Additional observations from a re-analysis of the deposited data

How the results depend on the processing

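The 6 quantities that passed kept their direction under every alternative tried and passed under all but 1. Those alternatives were windows of 1 and 3 Mb, positions moved by 0.5 Mb, the higher-coordinate side alone, 3 altered lists, other limits for long gaps and each chromosome left out. The exception was the comparison with the flanks from 2 to 5 Mb. There the log2 ratios were -0.31 for density, -0.30 for open bases and -0.019 for width at matched peak value, and the differences were 0.053 in mean peak value, 1.50 points at 18 and 7.29 points of length in long gaps (exact sign-flip, adjusted p from 0.109 to 0.581). The differences were smaller there. The SD over chromosomes stayed close to the main one for density (0.37 and 0.36), open bases (0.42 and 0.40) and long gaps (14.1 and 14.4). It was larger for width at matched peak value (0.094 and 0.056), the share at 18 (4.43 and 3.84) and mean peak value (0.24 and 0.20). The flanks also held fewer regions, 4205 against 27503 in the rest. The 2 quantities that did not pass did so elsewhere. Median width gave -10.6 bp with positions 0.5 Mb higher and -30.0 bp for peak values of at least 16. Short gaps gave -2.74 points with positions 0.5 Mb higher, -2.71 when gaps under 150 bp were closed, -3.28 without regions narrower than 100 bp and -5.06 for gaps under 2000 bp, and -3.10 to -1.85 with each chromosome left out, where the lowest value, without chromosome 7, passed. The causes of these were not tested. Window and rest were paired within chromosomes throughout. For the replicate numbers of the libraries, no paired analysis was possible because the list has no values per library, and leaving out single libraries was not run for the same reason. The depth behind each region is unknown.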
